A study of Homo sapiens with 4 samples.

Results

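Contacts that ribosomal RNA genes (rDNA) made with the rest of the genome were examined around 9 genes of heme and iron handling, ALAS1, UROS, FECH, HMOX1, TFRC, SLC25A37, FTH1, BACH1 and NFE2L2, out of 19970 protein-coding genes. Each gene was taken with 250 kb of sequence on each side of its hg38 span, and a second count was made with 50 kb on each side. A contact region counted where it overlapped the widened span, and this rule used no read count. The windows held 83 and 78 contact regions of untreated replicates 1 and 2, and 91 and 96 of hemin replicates 1 and 2, out of 47014 to 50721 regions per library outside the viewpoint.

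The contacts came from 4C, in which cross-linked chromatin is cut and ligated, and fragments joined to a chosen viewpoint are amplified and sequenced. The viewpoint here was a stretch of the spacer between rDNA units, the first cut was made with EcoRI (GAATTC), and the second with FaeI (CATG). The 2 untreated libraries came from K562 cells, an established erythroleukemia line, and the 2 hemin libraries from K562 cells kept with 50 µM hemin for 108 h, an agent that induces erythroid differentiation. The study's methods call the replicates biological, with no account of the cultures in the labels, and the files hold DNA contacts alone, so the cell type and the expression of the 9 genes were not checked here. The p-values measure the spread between 2 libraries per group. Library sizes outside the viewpoint ran from 9158290 to 16769647 reads, and the untreated libraries were the deeper ones.

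Heme is built in a chain of enzymes that starts and ends in the mitochondrion. ALAS1 encodes the enzyme of the first step in most cells, UROS an enzyme of the middle of the chain, and FECH the ferrochelatase that puts iron into the ring. HMOX1 encodes the heme oxygenase that opens the ring and frees the iron. TFRC encodes the transferrin receptor, which brings iron into the cell, SLC25A37 the mitochondrial iron carrier mitoferrin-1, and FTH1 the heavy chain of the iron store ferritin. BACH1 is a repressor that binds heme and is released from its targets, HMOX1 among them, when heme is plentiful. NFE2L2 (NRF2) activates many of the same targets. Hemin is itself a heme, and erythroid cells make heme for hemoglobin, so these genes stand close to the treatment.

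The region with most reads in a window showed where the contact was made. It was usually the end of a single EcoRI fragment. The regions below are some of the leading ones of their group, and they are shown because, outside the UROS window, none of them had a read in the other group. The sequences were deposited with the regions and read on the plus strand of hg38, with EcoRI and FaeI sites in capitals.
ALAS1, hemin libraries, chr3:52233457-52233535: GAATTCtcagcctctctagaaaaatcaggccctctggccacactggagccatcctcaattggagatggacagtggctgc
UROS, hemin libraries, chr10:125893853-125893931: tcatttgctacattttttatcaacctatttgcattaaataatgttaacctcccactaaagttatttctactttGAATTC
FECH, untreated libraries, chr18:57413619-57413740: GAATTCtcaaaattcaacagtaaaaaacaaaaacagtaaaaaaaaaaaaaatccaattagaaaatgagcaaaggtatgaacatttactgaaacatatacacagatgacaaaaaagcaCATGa
HMOX1, untreated libraries, chr22:35339962-35340079: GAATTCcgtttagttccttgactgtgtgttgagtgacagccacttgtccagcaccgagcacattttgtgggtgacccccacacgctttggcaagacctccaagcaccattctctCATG
TFRC, hemin libraries, chr3:195934692-195934770: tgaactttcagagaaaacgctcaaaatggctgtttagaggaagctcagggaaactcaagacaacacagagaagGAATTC
FTH1, untreated libraries, chr11:62179058-62179121: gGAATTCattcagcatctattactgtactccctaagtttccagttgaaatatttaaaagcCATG
FTH1, hemin libraries, chr11:61810080-61810159: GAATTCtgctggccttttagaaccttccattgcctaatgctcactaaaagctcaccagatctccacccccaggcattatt
BACH1, untreated libraries, chr21:29503920-29503951: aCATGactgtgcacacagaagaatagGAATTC
BACH1, hemin libraries, chr21:29138496-29138584: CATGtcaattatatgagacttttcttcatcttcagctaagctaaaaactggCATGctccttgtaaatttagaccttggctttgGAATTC
NFE2L2, hemin libraries, chr2:177336754-177336872: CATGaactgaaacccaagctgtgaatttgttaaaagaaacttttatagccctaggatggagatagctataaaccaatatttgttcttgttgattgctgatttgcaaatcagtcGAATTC

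Of the 17 leading regions (9 windows in 2 groups, without TFRC in untreated cells), 16 contained a GAATTC and 10 a CATG. All 17 sequences occurred once in hg38 as exact matches, on either strand. The leading regions of ALAS1, FECH, BACH1 and NFE2L2 in untreated cells and of TFRC and SLC25A37 in hemin cells consisted wholly of bases that the deposited files mark as repeats. The leading regions of HMOX1 and FTH1 held no such base in either group. Over all 348 regions of the windows, 53.4% lay within 100 bases of an EcoRI site, and these held 93.6% of the 70874 reads.

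Regions closer than 1 kb to each other were merged into a place, since the ends of 1 ligated fragment give neighbouring regions. The 9 windows held 105 places. Strong contacts recurred between replicates but seldom between groups. Of the 110 regions with over 100 reads, 108 overlapped a region of the other replicate (98.2%, against 96.8% over the whole series). Only 32 of the 110 overlapped a region of the other group (29.1%, against 20.2% over the whole series), and 26 of these 32 were in the UROS window. In the windows of ALAS1, FECH, HMOX1, TFRC, SLC25A37, FTH1 and NFE2L2 none of the regions with over 100 reads overlapped a region of the other group.

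**Figure D1:**
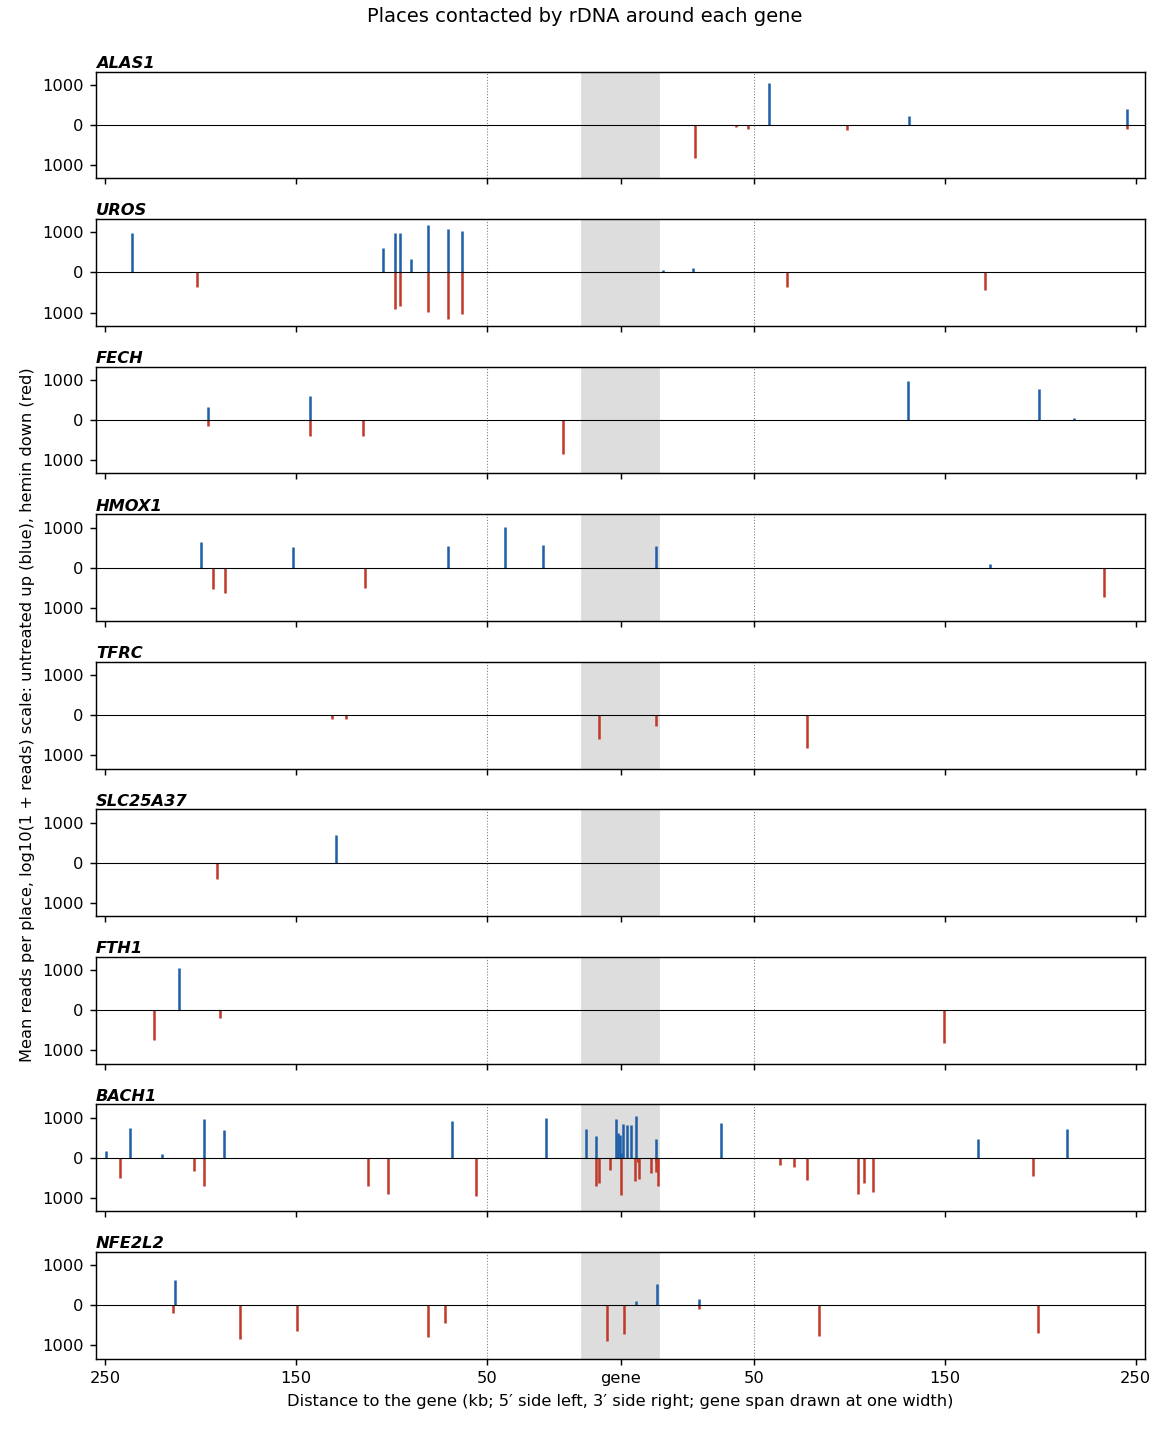
Places contacted by rDNA around each gene, by distance to the gene in kb (5′ side left, 3′ side right, the gene span drawn at the same width for all genes, dotted lines at 50 kb). Bars give the mean reads of the 2 untreated libraries upwards and of the 2 hemin libraries downwards on a log10(1 + reads) scale; only UROS has a row of strong places with bars in both directions.

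Reads of each window were compared between hemin and untreated libraries with the quasi-likelihood test of edgeR, fitted over the windows of all protein-coding genes, with TMM scaling (a correction of library size taken here from 100 kb bins of the genome) and a Benjamini-Hochberg adjusted p under 0.05. In the 250 kb windows all 9 genes were tested, 2 were called higher after hemin (TFRC and NFE2L2) and 5 lower (ALAS1, FECH, HMOX1, FTH1 and BACH1). Over all 19173 windows tested at this size 41.0% were called higher and 37.9% lower, so a call is what most windows show. In the 50 kb windows 6 genes were tested, 3 were called higher (ALAS1, FECH and TFRC) and 2 lower (HMOX1 and BACH1), where 44.3% of the 12515 windows tested were higher and 38.2% lower. The median log2 fold change of the 9 genes at 250 kb was −1.08, against 0.10 over all windows. Scaling to total reads moved that median of all windows to 0.39, and DESeq2 size factors moved it to 0.21. With a weight of 1 for each region instead of its read count, edgeR called 0 windows of the 19970 genes at either size, with 4986 of 19173 windows at 250 kb under an unadjusted p of 0.05. PCR reads without molecular identifiers are not independent molecules.

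**Figure D2:**
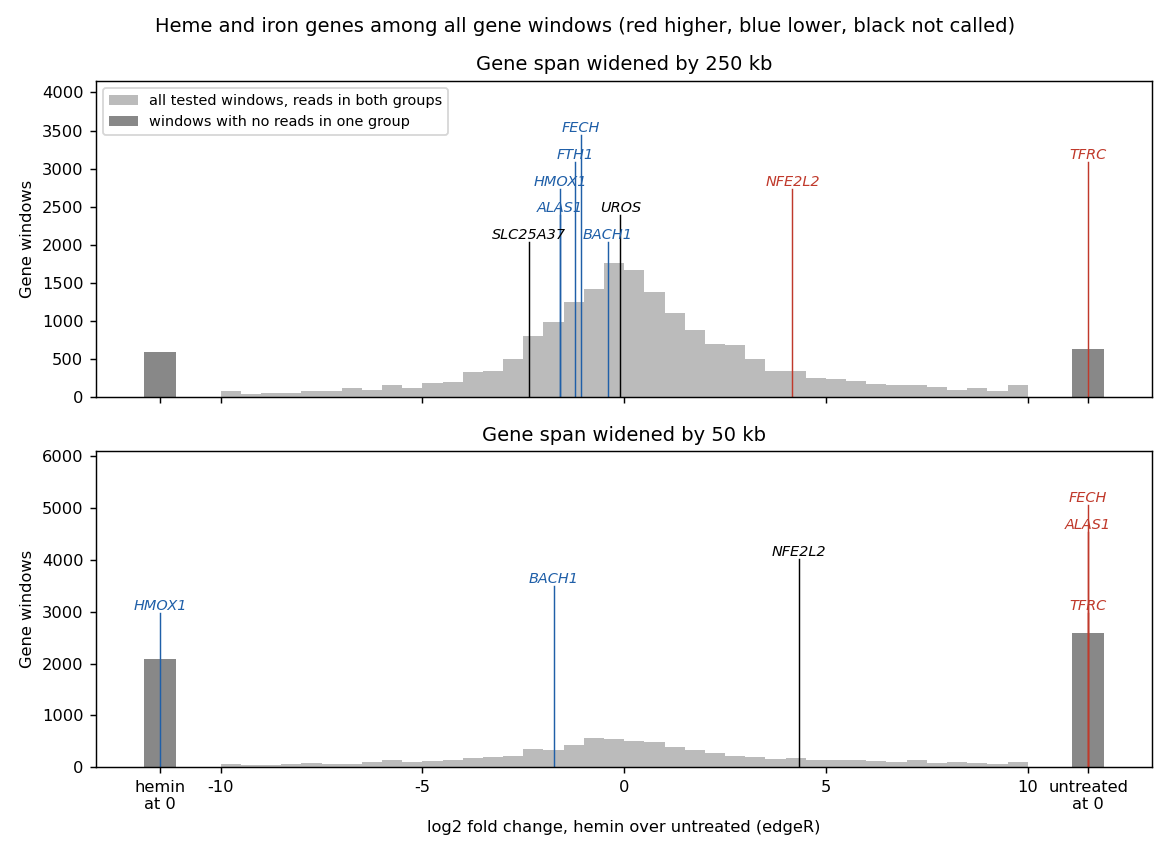
Number of gene windows (vertical axis) by log2 fold change of hemin over untreated in edgeR (horizontal axis), for 250 kb and 50 kb windows; dark bars at the ends count windows with no reads in 1 group, and the outermost light bars also hold values beyond the axis. Lines mark the heme and iron genes, red called higher, blue called lower and black not called; at 250 kb all but TFRC and NFE2L2 lie within the main body of windows.

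The level of contact differed widely between the genes. In RPM (reads scaled to the size of the library outside the viewpoint), divided by window length in units of 100 kb, UROS had the highest level in untreated cells with 109.5 ± 2.73 (SD, n = 2), followed by BACH1 with 45.0 ± 0.05. FTH1, ALAS1 and HMOX1 lay close together at 17.5 ± 0.78, 16.7 ± 0.22 and 16.3 ± 0.05, and FECH had 13.3 ± 0.58. SLC25A37 with 1.26 ± 0.06 and NFE2L2 with 1.13 ± 0.63 did not differ beyond their spread, and TFRC had no reads. The median of all windows was 6.56, so that 6 of the 9 genes lay above it. In hemin cells UROS had 124.9 ± 2.69, BACH1 41.2 ± 3.12, NFE2L2 24.7 ± 0.06 and FTH1 9.19 ± 1.04. FECH, TFRC, ALAS1 and HMOX1 followed from 7.68 to 6.58, each within 1 SD of its neighbour, and SLC25A37 was the lowest with 0.29 ± 0.41. The median of all windows in hemin cells was 9.02.

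**Figure D3:**
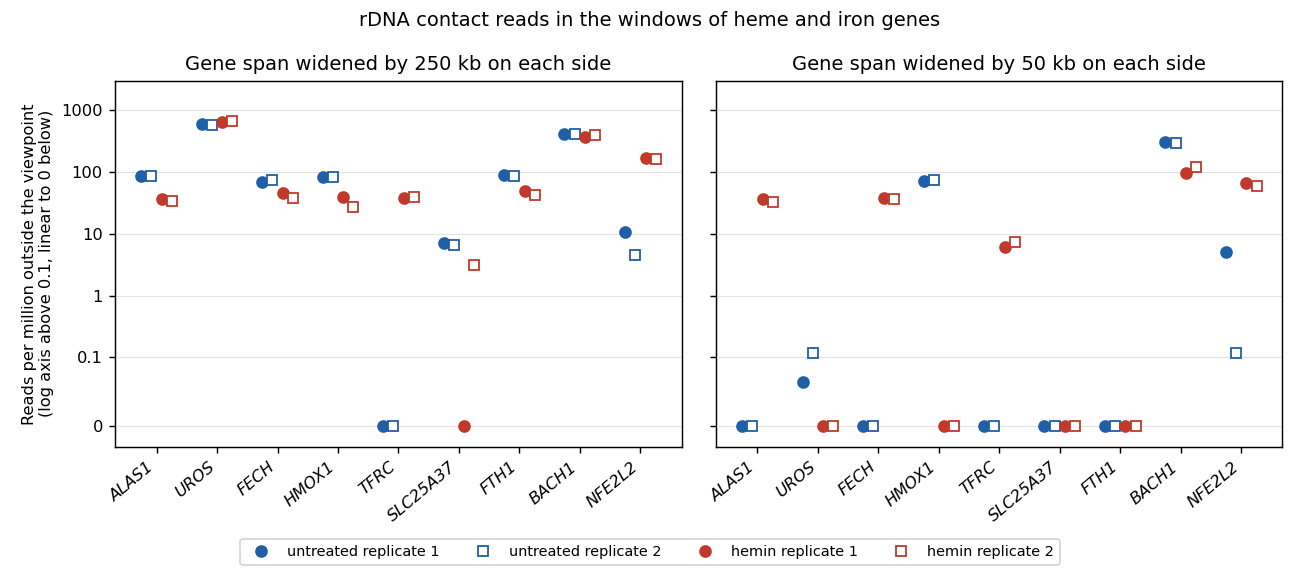
Contact level in each library, in RPM (vertical axis, logarithmic above 0.1) for the 9 genes, in 250 kb windows on the left and 50 kb windows on the right. Each point is a library; UROS and BACH1 stand highest at 250 kb, while at 50 kb most genes have reads in only 1 group.

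Among the enzymes of heme synthesis, ALAS1 (chr3:52198086-52214327, plus strand) had 1369 and 1436 untreated reads within 250 kb but 333 and 327 hemin reads. The hemin values were all below the untreated ones. The group means, in RPM after TMM scaling, were 95.3 ± 0.16 and 31.7 ± 1.20, and the window fell by 1.59 on the log2 scale (SE 0.07, adjusted p = 0.000575 by edgeR). In bulk cells, contact in fewer cells and less contact per cell cannot be told apart. A single region carried the untreated signal. It lay 57.6 kb beyond the 3′ end of ALAS1, in an intron of WDR82, and held 1349 and 1421 reads, 98.5% and 99.0% of the window. No hemin library had a read there. The hemin reads lay closer, 19.1 kb from the 3′ end in an intron of TWF2, with 290 and 314 reads in the leading region and none in the untreated libraries. Within 50 kb ALAS1 therefore had 0 and 0 untreated and 333 and 322 hemin reads. This was at least 154-fold higher after hemin, counted against a limit of 3 reads per library, with an adjusted p of 0.00116 by edgeR. The direction at ALAS1 thus depended on whether the place at 57.6 kb was inside the window. Regions present in both replicates of a group and kept after the authors' repeat removal held only 0.231% of the ALAS1 reads. Neither leading region was among them, and with such regions alone ALAS1 could not be tested at either size.

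FECH (chr18:57544377-57586732, minus strand) showed the same reversal between window sizes. Within 250 kb it had 1098 and 1248 untreated and 417 and 367 hemin reads, with all hemin values lower. The scaled means were 79.7 ± 4.65 and 37.7 ± 4.34, and the window fell by 1.08 on the log2 scale (SE 0.12, adjusted p = 0.00413 by edgeR). The leading untreated region, with 857 and 961 reads, lay 130.6 kb beyond the 3′ end where no gene is annotated. The leading hemin place, with 356 and 363 reads, lay 10.1 kb upstream of the gene, also outside annotated genes. With GENCODE start sites, it was the contact closest to a start among the 9 genes. Within 50 kb the counts were 0 and 0 untreated against 356 and 363 after hemin. The window was at least 169-fold higher in the hemin libraries (adjusted p = 0.0011 by edgeR). Regions kept after repeat removal held 16.2% of the FECH reads, and neither leading region was among them. With such regions alone no hemin read was left within 250 kb, and the 50 kb window could not be tested.

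Such reversals were not rare. Of the 5 genes called at both sizes, ALAS1 and FECH went in opposite directions, while HMOX1, TFRC and BACH1 kept theirs. Over all genes 8571 were called at both sizes and 1969 of these went in opposite directions.

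UROS (chr10:125784980-125823258, minus strand) had by far the most reads and the least difference. Within 250 kb it had 9413 and 9707 untreated and 6064 and 6626 hemin reads, and after scaling the means were 650.0 ± 6.73 and 609.5 ± 23.0. The log2 fold change was −0.09 (SE 0.04), with an adjusted p of 0.128 by edgeR. Scaled to total reads it was 0.19 with an adjusted p of 0.0168, so its direction followed the scaling. Hardly any of these reads were near UROS itself. Within 50 kb there were 1 and 2 untreated reads and 0 and 0 hemin reads, which was too few for a test. The contacts lay 62.9 to 98.1 kb upstream of UROS, in introns of DHX32 and FANK1, as 5 places found in all 4 libraries. These 5 places took 89.4% and 91.5% of the untreated reads of the window and 99.6% and 99.0% of the hemin reads.

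The reads within the row of 5 shared places were divided differently in the untreated and hemin libraries. The place in DHX32 at 70.4 kb had 1603 and 1771 untreated and 3129 and 3361 hemin reads, although the hemin libraries were the smaller ones. The place in FANK1 at 81.0 kb had 3808 and 3886 untreated but 898 and 932 hemin reads. The place at 62.9 kb stood at 1248, 1306, 1215 and 1326 reads in the same order of libraries. These counts are not scaled. Outside the viewpoint the untreated libraries held 15698106 and 16769647 reads and the hemin libraries 9158290 and 9707373. Like counts at 62.9 kb thus stand for a higher level per library size after hemin. At each of the first pair the unscaled values of the groups did not overlap. Places were not tested singly. Of the other 8 windows, only that of BACH1 held a place found in all 4 libraries, and it held 1. Of all protein-coding genes 0.876% had 5 or more such places in their window.

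**Figure D4:**
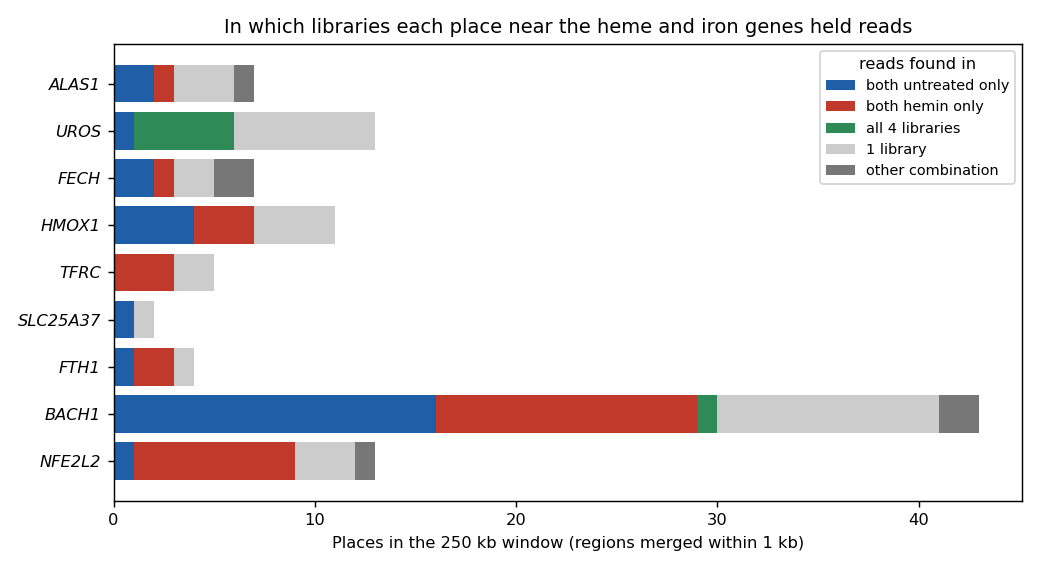
Number of places in the 250 kb window of each gene (horizontal axis), coloured by the libraries in which a place had reads. Places shared by all 4 libraries are 5 of 13 at UROS and 1 of 43 at BACH1, and none elsewhere.

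HMOX1 (chr22:35380361-35394214, plus strand), the heme oxygenase gene, had contacts inside the gene in untreated cells alone. Within 250 kb it had 1310 and 1405 untreated and 367 and 267 hemin reads, and the groups did not overlap. The scaled means were 92.3 ± 1.61 and 30.6 ± 7.56, and the window fell by 1.59 on the log2 scale (SE 0.21, adjusted p = 0.00624 by edgeR). The leading untreated region, with 1081 and 1133 reads, lay 40.3 kb upstream in an intron of TOM1. A weaker place with 45 and 38 reads lay at the 3′ end of HMOX1, in sequence annotated as its UTR, 13.3 kb from the start site. Neither had a read in the hemin libraries. The nearest hemin contact was 114.2 kb from the start site, and the leading one, with 169 and 158 reads, lay 233.6 kb downstream in an intron of MB. Within 50 kb the counts were 1126 and 1262 untreated and none after hemin, at least 281-fold lower after hemin (adjusted p = 0.00108 by edgeR). On chromosome 22 as a whole, 60.1% of the 446 windows tested at 250 kb were called lower and 27.6% higher, with a median log2 fold change of −0.65. On chromosomes 18, 11 and 3, which hold FECH, FTH1 and ALAS1, 47.4%, 30.5% and 35.5% of windows were called lower. There 30.1%, 45.9% and 46.3% were called higher, with median log2 fold changes of −0.29, 0.53 and 0.33.

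TFRC (chr3:196012511-196082153, minus strand), the transferrin receptor gene, went the other way. No untreated library had a read within 250 kb, and the hemin libraries had 354 and 379. Against the limit of 3 reads per library that a count of 0 allows, the window was at least 173-fold higher after hemin (adjusted p = 0.00126 by edgeR). Most of these reads, 258 and 270 in the leading region, lay 77.7 kb beyond the 3′ end in an intron of an unnamed gene. Inside TFRC there were 56 and 72 hemin reads, chiefly in an intron 14.7 kb from the start site. Regions kept after repeat removal held 17.5% of the TFRC reads, and the leading region at 77.7 kb was not among them. Within 50 kb TFRC was at least 30.1-fold higher after hemin (adjusted p = 0.00382 by edgeR). When the window was widened to 1 Mb on each side the log2 fold change turned to −0.49, with an adjusted p of 0.585.

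FTH1 (chr11:61959718-61967634, minus strand), the ferritin heavy chain gene, had no read within 50 kb in any library. Within 250 kb the untreated libraries had a single region, with 1441 and 1445 reads, 211.4 kb upstream of the gene and outside annotated genes. The hemin libraries had 462 and 417 reads at other places, led by a region in introns of FADS1 and FADS2 with 273 and 241 reads, 149.6 kb beyond the 3′ end. The scaled means were 98.1 ± 2.96 and 42.3 ± 4.11, and the window fell by 1.21 on the log2 scale (SE 0.10, adjusted p = 0.00188 by edgeR). The place nearest to FTH1 in any library was 149.4 kb away.

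SLC25A37 (chr8:23528956-23575463, plus strand), the mitoferrin-1 gene, had the fewest reads. Within 250 kb there were 112 and 112 untreated reads and 0 and 31 hemin reads, and none within 50 kb in any library. In edgeR the log2 fold change was −2.37, with an SE of 1.85 and an adjusted p of 0.309, and the hemin replicates stood apart. Without hemin replicate 2 no hemin read was left, and the log2 bound against 3 reads was −4.70. That fit had a single hemin library, so it could not measure the spread between the hemin replicates. The untreated reads lay 128.9 kb upstream in introns of ENTPD4 and LOXL2, and the 31 hemin reads 191.5 kb upstream in LOXL2.

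BACH1 (chr21:29194071-29630751, plus strand), the heme-binding repressor, lies on the long arm of chromosome 21, and chromosome 21 holds the viewpoint copies in hg38. Its window had 43 places, of which 17 were found in both untreated libraries and 15 in both hemin libraries, with 1 in all 4. Over the whole series 6.65% of places were found in all 4 libraries. Within 250 kb it had 6608 and 7070 untreated and 3349 and 3951 hemin reads, and the scaled means were 464.8 ± 7.29 and 350.4 ± 32.2. The window fell by 0.41 on the log2 scale (SE 0.08, adjusted p = 0.0181 by edgeR). The median log2 fold change of the 220 windows tested on chromosome 21 was also −0.41, and 56.8% of them were called lower. The BACH1 call was lost without untreated replicate 1 (adjusted p = 0.0545), without untreated replicate 2 (adjusted p = 0.0533) and when scaled to total reads (log2 fold change −0.13, adjusted p = 0.175). With the regions present in both replicates of a group and kept after repeat removal, it turned and was called higher (0.16, adjusted p = 0.0188), under a setting that called 94.9% of all windows. Within 50 kb the difference was larger, with 4771 and 5074 untreated against 897 and 1194 hemin reads, and the window fell by 1.74 on the log2 scale (SE 0.15, adjusted p = 0.00265 by edgeR).

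The leading BACH1 regions lay inside the annotated span with 1339 and 1535 reads in untreated cells, and 55.5 kb upstream in an intron of MAP3K7CL with 722 and 837 reads in hemin cells. GENCODE gives BACH1 a span of 436.7 kb, where RefSeq gives 63.0 kb. With the RefSeq span (chr21:29298922-29361894) the 50 kb window had 1002, 1084, 128 and 303 reads in untreated replicates 1 and 2 and hemin replicates 1 and 2, and it was still called lower (−1.78 on the log2 scale, adjusted p = 0.0405 by edgeR). The leading untreated region lay outside that shorter span.

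NFE2L2 (chr2:177218667-177392756, minus strand), the activator counterpart, rose after hemin. Within 250 kb it had 167 and 78 untreated and 1529 and 1615 hemin reads, with scaled means of 8.40 ± 4.55 and 151.1 ± 2.08. In edgeR this was a log2 fold change of 4.17, with an SE of 0.48 and an adjusted p of 0.00447, and every hemin value lay above every untreated one. It was 4.88 without untreated replicate 1 and 3.68 without untreated replicate 2. The hemin libraries had 8 places in common that no untreated library had, led by a place inside the annotated span with 481 and 464 reads. The next ones were 179.6 kb upstream with 287 and 354 reads and 81.1 kb upstream in an intron of AGPS with 260 and 244 reads. Over the whole series, 15008 of the 19771 places found in both hemin libraries (75.9%) had no untreated read, so such places are common. Within 50 kb the counts were 81 and 2 untreated and 611 and 590 hemin reads. The untreated libraries stood apart there, and the log2 fold change of 4.32 was not called (SE 1.71, adjusted p = 0.0958 by edgeR). It was 8.67 without untreated replicate 1 and 3.34 without untreated replicate 2. Each of these fits had a single untreated library, so it could not measure the spread between the untreated replicates. Regions kept after repeat removal held 46.2% of the NFE2L2 reads, and the leading hemin region was not among them. With such regions alone no untreated read was left within 250 kb. That window was still called higher (log2 bound 8.52), under a setting that called 94.9% of all windows, and the 50 kb window could not be tested. RefSeq gives NFE2L2 34.4 kb in place of 174.1 kb, and with that span the 50 kb window had 81, 2, 130 and 126 reads, with an adjusted p of 0.334 by edgeR. The 250 kb window then had 81, 2, 1175 and 1156 reads. Its log2 fold change of 5.28 was called close to the threshold (adjusted p = 0.0472 by edgeR). The leading hemin region lies outside that shorter span.

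With GENCODE start sites, no region of any library lay within 10 kb of the start of any of the 9 genes, while 4398 of the 19970 protein-coding genes had such a region. With the RefSeq start of NFE2L2, a region of 2 reads in untreated replicate 1 was 6.27 kb away. Contact regions overlapped the GENCODE gene span at HMOX1 in untreated cells, at TFRC in hemin cells and at BACH1 in both groups. At NFE2L2 they did so in the hemin libraries and in untreated replicate 1, with 79 reads against 0 in untreated replicate 2. Within the shorter RefSeq spans, NFE2L2 had no region in any library and BACH1 had 1 region of 15 reads, in hemin replicate 1. ALAS1, UROS, FECH, SLC25A37 and FTH1 had none.

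Since a few places held most reads, each window was also counted without its leading place. That place held a median of 66.1% of the reads over the 9 windows, and of 50.8% over all windows. Without it ALAS1 (4.72 on the log2 scale), FECH (1.07) and FTH1 (no untreated reads left) were called higher after hemin, where they had been lower, and HMOX1 turned to 0.85 with an adjusted p of 0.0521 by edgeR. BACH1 came to −0.07 and was not called, and UROS was called lower at −0.85. TFRC and NFE2L2 stayed higher. The leading place moved windows in general: without it 46.2% of all windows tested were called higher and 23.4% lower, and their median log2 fold change was 0.71 in place of 0.10. Turns of direction on leaving out the leading place concerned 4 of the 7 called genes, and 32.3% of the called windows over all genes.

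The other genes of the pathway were taken as a list of 40, with windows that overlapped neither each other nor those of the 9 genes. At 250 kb all 40 were tested, 18 were called higher after hemin and 13 lower, with a median log2 fold change of 0.42. At 50 kb 18 were tested, 8 were higher and 7 lower. Of the 6 other genes of heme synthesis, 5 were called higher at 250 kb, ALAS2 and CPOX among them, and none lower. Of the 9 genes of heme and intermediate transport, 6 were higher and 1 lower. Iron uptake, storage and export had 6 higher and 4 lower of 12, heme breakdown 1 lower of 3, and the regulators 1 higher and 7 lower of 10. These counts stand beside the background shares of 41.0% and 37.9%, and no test of the list was made.

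Genes called the same way at both sizes were led by STEAP3, the ferric reductase of the transferrin cycle. It had 7 and 4 untreated and 1313 and 1426 hemin reads within 250 kb, and rose by 8.42 on the log2 scale (SE 0.27, adjusted p = 0.000449 by edgeR). CPOX, the coproporphyrinogen oxidase of heme synthesis, had 0 and 6 untreated and 250 and 273 hemin reads (6.89, SE 1.35). SLC40A1, the iron exporter ferroportin, had 81 and 24 untreated and 434 and 500 hemin reads (3.63, SE 0.75). All 3 had no untreated read within 50 kb. SLC40A1 had 87.9% of its reads in 1 place, and without it the log2 fold change turned to −1.83, while STEAP3 came to 7.16 and CPOX to 6.28.

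At the other end MAFG, a small MAF protein that pairs with BACH1 and NRF2 on DNA, had 919 and 900 untreated and 90 and 71 hemin reads, and fell by 2.99 on the log2 scale (SE 0.19, adjusted p = 0.00121 by edgeR). BMP6, a ligand that drives hepcidin production, had 2101 and 2275 untreated and 282 and 329 hemin reads (−2.34, SE 0.08). IREB2, an iron regulatory protein that binds the mRNAs of TFRC and FTH1, had 2209 and 2301 untreated and 321 and 364 hemin reads (−2.22, SE 0.07). MAFG had 89.8% of its reads in 1 place, and without it the log2 fold change turned to 2.47, while BMP6 came to −0.23 and IREB2 to −0.59.

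**Figure D5:**
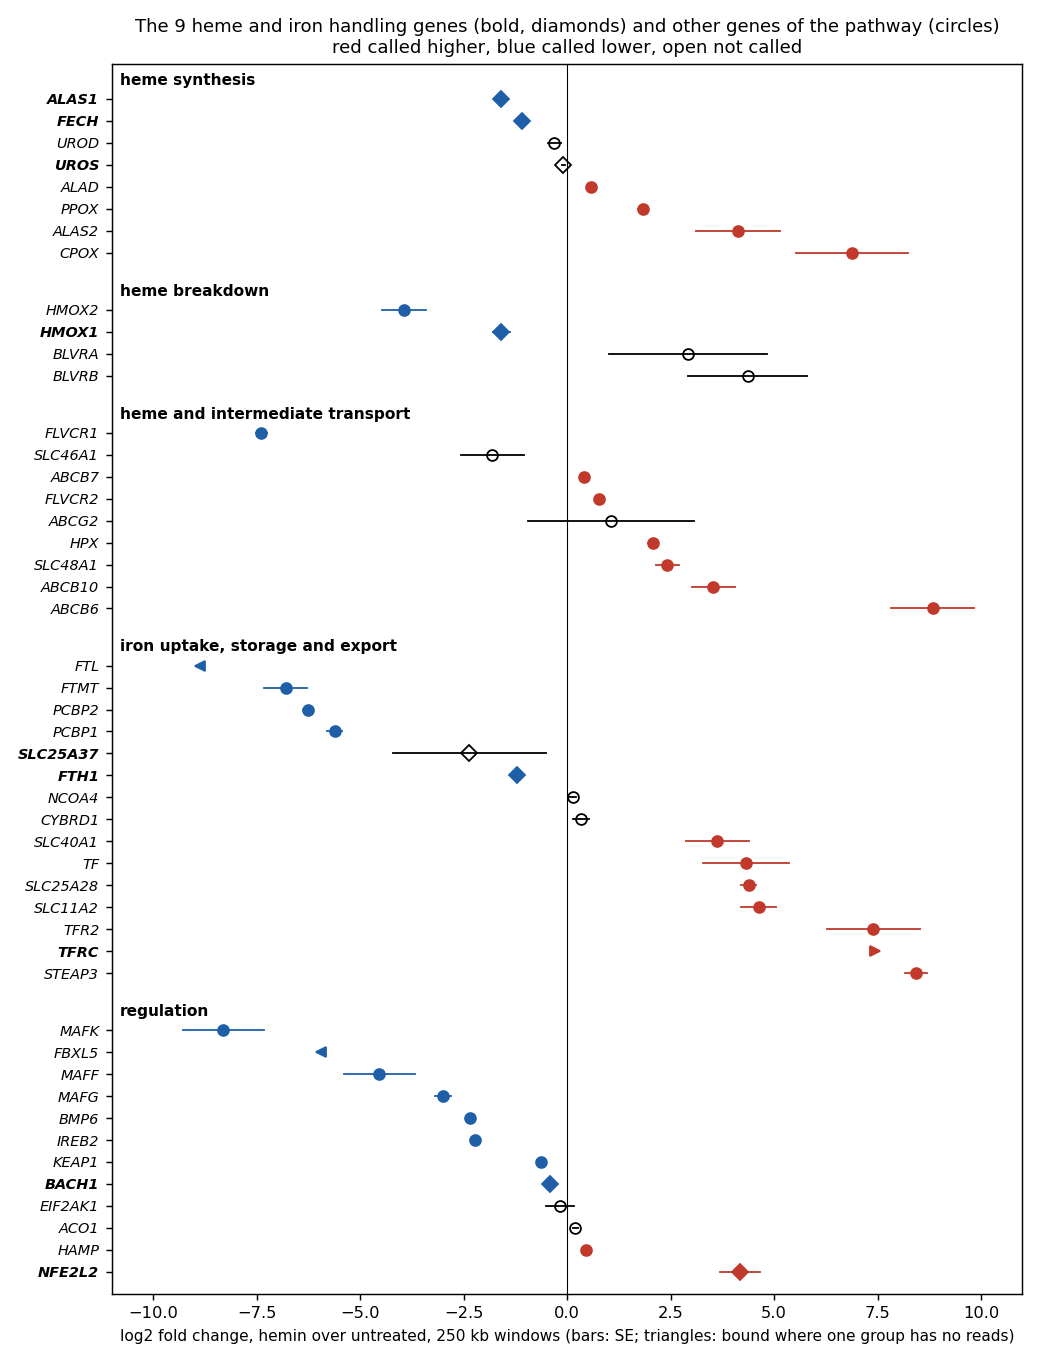
Log2 fold change of hemin over untreated in 250 kb windows (horizontal axis) for the 9 genes (bold names, diamonds) and other heme and iron genes (circles), grouped by role, with bars of 1 SE; triangles give the bound where a group had no reads. Red was called higher, blue lower, and open symbols were not called; the regulators lie mostly to the left and the other genes of heme synthesis mostly to the right.

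For each gene called at 250 kb, the gene on another chromosome with the closest values was sought, by the Euclidean distance over the log2 values (pseudocount 1) of the 4 libraries, scaled to library size. TFRC was closest to KNOP1 (0, 0, 354 and 378 reads, distance 0.0037), ALAS1 to DOCK4 (1407, 1360, 318 and 321 reads, 0.111), and FECH to GRHPR (0.124). BACH1 was closest to MYO18B (0.124), FTH1 to WDR76 (0.13), HMOX1 to ZNF469 (0.205) and NFE2L2 to AXL (0.385).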

How the data were processed

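The authors trimmed adapters with cutadapt 3.5, aligned to hg38 with BWA 0.7.17-r1188 and handled alignments with SAMtools 1.14 and bedtools 2.29.1, per the submitters' processing notes; removal of PCR duplicates and a filter on mapping quality are not given in the sources used here. The deposited files of the replicates give, for each contact region, a read count with no normalization, and the deposited file of each group gives a signal for regions found in both replicates and kept by the authors' repeat filter. The latter served only as an alternative. There were 0 columns that could not be tied to a sample or group.

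The 3 copies of the viewpoint on chromosome 21 were left out with 10 kb on either side. Reads were summed over windows of 19970 protein-coding genes (GENCODE release 44, chromosomes 1 to 22 and X), and windows with at least 10 reads in at least 2 libraries were tested with edgeR 4.0.16 (R 4.3.3), with TMM factors from 100 kb bins and treatment as the only term. DESeq2 1.42.0, the tool of the study, was an alternative. The scripts were tested on simulated data. Python 3.11.15, numpy 2.4.6, pandas 2.3.3, pysam 0.24.0 and matplotlib 3.10.9 were used. Libraries held 19548906 to 34000240 reads. An exact permutation test of 2 against 2 libraries cannot give a p under 0.333. Counts of 0 were set to a limit of 3 reads per library for bounds, which cover counting error only.

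The members and lists were chosen with earlier results of these data known. The named genes were all 9 members, up to 3 with the highest and up to 3 with the lowest log2 fold change of 40 other heme and iron genes called the same way at both window sizes, and the closest gene to each called member. Alternatives covered the test, the scaling, filters, the replicate block, each library left out, ways of counting regions, thinning, window sizes and, chosen after seeing the data, RefSeq spans. A few sequences and 1 gene of the wider list are not reported here by name.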

Additional observations from a re-analysis of the deposited data

How the results depend on the processing

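Of 257 values recomputed for single genes under the alternatives, 219 kept their direction and side of the threshold, 17 lost their call, 9 gained one and 12 turned direction. Settings under which a gene could not be tested gave no value and are not among the 257. The same holds where 1 group had no reads and the other lay below the limit of 3 reads. Counts of called genes moved by over 1.5 times under the following alternatives. With each region counted once, the member windows and the other genes had 0 called higher and 0 lower at both sizes. Without the leading place, 5 members were higher and 1 lower at 250 kb, 0 were higher at 50 kb, 7 other genes were lower at 250 kb, and 2 were higher and 2 lower at 50 kb; over all windows this setting called 46.2% higher and 23.4% lower at 250 kb, and 44.9% and 26.9% at 50 kb. At 50 kb, repeat-filtered regions (also required in both replicates by the authors) and windows of 2.5 kb each left 1 member called higher; fewer members could be tested there. With the replicate block at 50 kb, 0 members were higher and 1 lower, and 0 other genes were higher and 1 lower; the samples share only a replicate number, in 2 pairs (correlation of deviations −0.0201), and over all genes 17.2% of windows were called with it at 50 kb and 64.6% at 250 kb.

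Turned directions, as log2 fold changes, were UROS at 0.0149 with DESeq2, 0.19 with total reads, 0.00015 with regions of 10 reads or more and 0.37 in 1000 kb windows; ALAS1 at 0.36 and FTH1 at 2.23 with each region counted once; ALAS1 at 4.72, FECH at 1.07, HMOX1 at 0.85 and FTH1 at least at 7.70 without the leading place; BACH1 at 0.16 with repeat-filtered regions; and TFRC at −0.49 in 1000 kb windows. Where the construction of the alternative does not show it, the cause was not tested. UROS was called lower with TMM of windows (−0.20), repeat-filtered regions (−0.35) and without the leading place (−0.85), and higher with total reads and in 1000 kb windows. The RefSeq spans, chosen after seeing the data, left the direction and side of the threshold of each member as they were. NFE2L2 at 250 kb (adjusted p = 0.0472 by edgeR) and BACH1 at 50 kb (adjusted p = 0.0405 by edgeR) then lay close to the threshold.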

Other observations

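The following genes of the wider list were chosen after their values were seen. All 3 ferritin genes had fewer reads after hemin within 250 kb and none within 50 kb in any library. FTH1 was called higher once its leading place was left out. FTL, the ferritin light chain gene, had 1953 and 2046 untreated and 0 and 0 hemin reads, at least 471-fold lower (adjusted p = 0.000463 by edgeR), and FTMT, the mitochondrial ferritin gene, had 883 and 884 untreated and 8 and 3 hemin reads (log2 fold change −6.80, SE 0.52). The windows of all 3 small MAF genes were called lower, but without the leading place the log2 fold change of MAFF turned to 1.57 and that of MAFG to 2.47, while MAFK came to −5.79. MAFF had 1226 and 1220 untreated and 13 and 62 hemin reads, and MAFK had 916 and 966 untreated and 0 and 4 hemin reads. At this size 37.9% of all windows were called lower.

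FLVCR1, a heme exporter gene, had the most untreated reads of the list within 250 kb, 30338 and 32507, against 118 and 148 hemin reads. A single place held 99.6% of the reads of this window. Without it the log2 fold change turned from −7.39 to 4.91. Within 50 kb FLVCR1 had 3 and 0 untreated and 118 and 144 hemin reads and was called higher (adjusted p = 0.0181 by edgeR). ALAD, of heme synthesis, and HAMP, which encodes hepcidin, were called higher at 250 kb and lower at 50 kb, with 0 and 0 hemin reads within 50 kb in both. Of the 12 genes of the list called at both sizes, these 3 went in opposite directions.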
